A study of Mus musculus with 7 samples.

Results

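The values below describe Paneth cells of mice that drank water, the untreated state in a study of how these cells respond to gut inflammation. Of the 7 RNA libraries in the study, the 3 whose labels give water as the agent were taken, and the 4 libraries of mice given dextran sulfate sodium (DSS), which damages the lining of the gut, were left out. All 7 came from C57BL/6J mice of the genotype Lgr5-EGFP-IRES-CreERT2, an allele that places a green fluorescent protein and an inducible Cre recombinase at the stem cell gene Lgr5; the labels do not give its zygosity. The mice of water 1 and water 2 were 12 weeks old and that of water 3 was 10 weeks old, while a further label gives 8 to 12 weeks for all. RNA was isolated on 14 November 2017 for water 1 and water 2 and on 21 November 2017 for water 3, so age and isolation day cannot be told apart. Crypts of the small intestine were freed with EDTA after the villi had been scraped away and were digested to single cells. The sort took live single cells by CD24 and side scatter and discarded those that carried TER119 (erythroid), CD31 (endothelial) or CD45 (leukocyte); CD117, the Kit protein, was stained too. Nothing in the labels says that the libraries are from different animals, so the SD values measure the spread between these 3 libraries, and their numbers follow accession order only.

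Paneth cells sit at the bottom of the crypts of the small intestine and are filled with large secretory granules that are released into the crypt lumen. The granules hold lysozyme, which cuts bacterial cell walls, and alpha-defensins, short cationic peptides that are made as inactive precursors and, in the mouse, are activated by the protease matrilysin (Mmp7). The cells also lie between the Lgr5-positive stem cells and supply them with Wnt, Notch and growth factor ligands.

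Polyadenylated RNA was counted per gene for 52550 genes, with totals of 24504251, 23175708 and 25894328 counts in water 1, 2 and 3. Levels within a gene are given in CPM, the count scaled to the library total; 3 counts are worth 0.116 to 0.129 CPM, depending on the library. CPM also gives a gene's part of the counts. Transcript levels of different genes are compared in TPM, for which each count is divided by the exon length in the file before scaling. That length covers all annotated exons of a gene and can exceed its transcript, so ratios between genes depend on the annotation. A total of 28404 genes had a count in any library and 14139 had at least 1 CPM in all 3, of which 11586 were protein-coding. With 1 group there is no contrast and nothing was tested: errors are SD over n = 3 libraries.

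The alpha-defensins are shown at sequence level because many members share long stretches that short reads cannot separate, which bears on the values of single members. The 40 members with a mean of at least 1 CPM lie together at chr8:20943694-21735471 (mm10). The highest by TPM, Defa24 (coding span chr8:21734537-21735377, plus strand) and Defa30 (chr8:21134663-21135503, plus strand), have coding sequences of 282 bases that differ at 4. Defa21 (chr8:21025588-21026423, plus strand) and Defa22 (chr8:21162320-21163155, plus strand) differ at 2 of 282 bases. The sequences are the joined coding exons of GENCODE release 21 on GRCm38, and capitals mark the bases of Defa30 that differ from Defa24 and those of Defa22 that differ from Defa21.
Defa24: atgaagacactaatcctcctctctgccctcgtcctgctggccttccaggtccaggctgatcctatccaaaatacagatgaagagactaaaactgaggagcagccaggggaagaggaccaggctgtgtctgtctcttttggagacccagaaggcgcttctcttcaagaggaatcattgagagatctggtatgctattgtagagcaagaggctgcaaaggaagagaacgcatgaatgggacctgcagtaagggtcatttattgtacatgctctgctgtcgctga
Defa30: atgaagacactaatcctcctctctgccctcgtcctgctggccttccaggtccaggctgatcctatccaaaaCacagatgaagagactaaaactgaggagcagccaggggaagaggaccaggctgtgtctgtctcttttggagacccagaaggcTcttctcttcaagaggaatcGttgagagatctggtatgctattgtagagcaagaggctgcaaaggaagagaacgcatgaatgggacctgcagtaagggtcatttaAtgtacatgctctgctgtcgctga
Defa21: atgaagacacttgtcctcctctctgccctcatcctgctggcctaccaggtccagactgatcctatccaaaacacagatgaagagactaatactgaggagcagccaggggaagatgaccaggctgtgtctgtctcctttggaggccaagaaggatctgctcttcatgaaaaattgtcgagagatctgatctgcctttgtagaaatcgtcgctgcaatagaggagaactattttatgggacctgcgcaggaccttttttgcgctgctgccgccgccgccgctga
Defa22: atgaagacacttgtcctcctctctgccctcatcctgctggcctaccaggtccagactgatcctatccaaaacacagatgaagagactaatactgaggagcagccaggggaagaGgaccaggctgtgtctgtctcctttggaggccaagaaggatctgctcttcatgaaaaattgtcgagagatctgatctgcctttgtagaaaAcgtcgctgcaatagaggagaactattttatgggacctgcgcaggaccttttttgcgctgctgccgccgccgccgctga

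The likeness reached past the coding exons. The 60 bases before the start of Defa21 (chr8:21025485-21025544) and of Defa22 (chr8:21162217-21162276) were identical in the RefSeq promoter table for GRCm38.p6, and both held TATAAA, the letters of a TATA box, here in capitals.
Defa21 promoter: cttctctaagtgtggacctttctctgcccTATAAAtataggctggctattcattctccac
Defa22 promoter: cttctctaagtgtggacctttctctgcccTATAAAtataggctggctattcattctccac
TATAAA, searched on the gene's strand in the 50 bases before the start, was present in 11 of the 13 alpha-defensins in that table, in 15 of the 100 highest genes by TPM with an entry and in 3.15% of all 27025 genes. The 100 highest include alpha-defensins, Defa21 and Defa22 among them, so these groups overlap. The TATAAA hits are matches of letters and say nothing of binding. Cut into windows of 50 bases, the transcripts of Defa2, Defa20, Defa31, Defa32, Defa33, Defa37, Gm7849 and the pseudogene Defa-ps17 shared every window with another alpha-defensin. The corresponding share was 72.9% for Defa21, 74.9% for Defa22, 52.4% for Defa30 and 28.1% for Defa24. How the counting divided reads among such copies is uncertain, so the summed family is the firmer value.

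Granule genes dominated the libraries. The 74 genes listed as alpha-defensins, lysozymes, Reg lectins and other granule proteins took 38.6%, 40.7% and 39.8% of all gene counts in water 1, 2 and 3, or 39.7% ± 1.03 (SD, n = 3). The 95% Wilson interval of each share was at most 0.0200 percentage points to either side, which covers counting error only. Corrected for length, the same genes made up 74.5% ± 0.985 of TPM, since alpha-defensin transcripts are short. All 18 genes at 10000 TPM or more were granule genes, and 15 of them were alpha-defensins; these 18 held 66.5% of TPM. The 25 highest genes by CPM and the 25 highest by TPM had 23 in common.

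**Figure D1:**
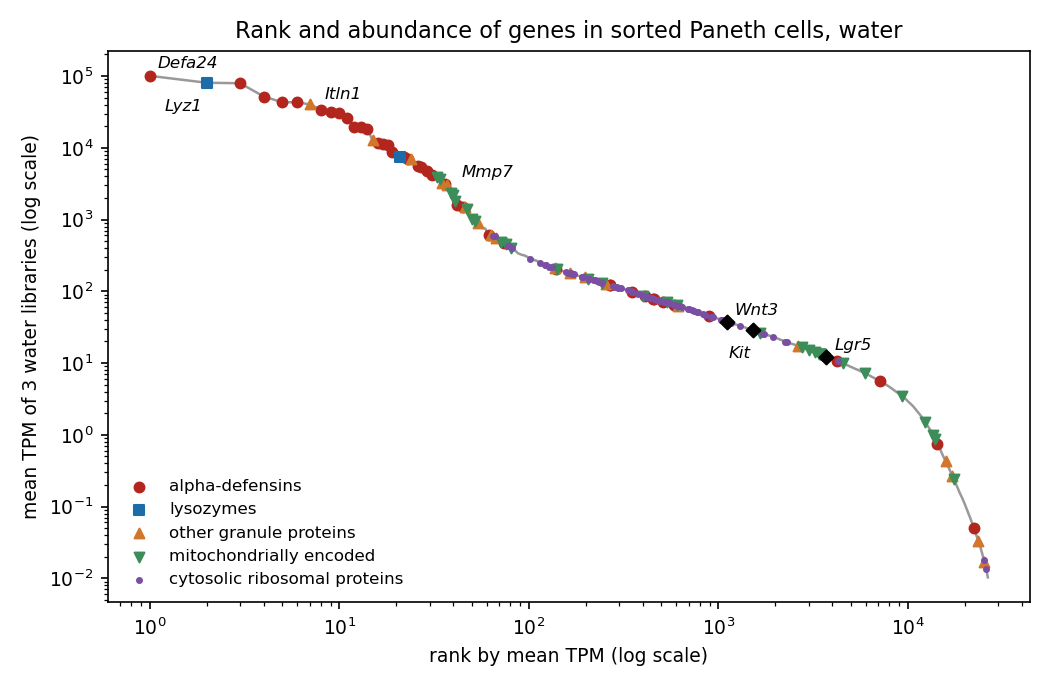
Mean TPM of each gene over the 3 water libraries against its rank, both on log scales; the grey line is every gene above 0.01 TPM, coloured points mark 5 gene classes and black diamonds mark Kit, Wnt3 and Lgr5. Alpha-defensins and other granule genes fill the ranks at 10000 TPM or more, while Kit lies at 29.0 TPM.

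Lyz1, the Paneth cell lysozyme (chr10:117287797-117292868, minus strand), was the highest gene by counts, at 92927.5, 97195 and 91964.5 CPM. The 3 values were close and averaged 94029 ± 2784 CPM, or 9.40% of all counts. Its neighbour Lyz2 (chr10:117277331-117282321, minus strand), the lysozyme best known from macrophages, stood at 9107, 8940 and 9434 CPM. Per length, Lyz1 exceeded Lyz2 by 10.6, 11.3 and 10.2 times in water 1, 2 and 3, a mean ratio of 10.7 ± 0.589. The coding sequences of Lyz1 and Lyz2 are 95.1% identical, with 22 differences, and 16.1% of the 50-base windows of Lyz1 are shared with Lyz2. That leaves most of each transcript distinct.

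As a family the 46 alpha-defensins took 21.7%, 23.3% and 22.3% of counts, or 22.4% ± 0.789, and 58.2% ± 1.09 of TPM. Defa24 ranked highest of all genes per length, at 100784 ± 4449 TPM, with 39991, 37952 and 38896 CPM in water 1, 2 and 3. Defa30 followed among the defensins at 79460 TPM and Gm7849, annotated under a predicted name, at 51817 TPM. The summed level of the near-identical Defa24 and Defa30 was 68073, 66176 and 70118 CPM, a coefficient of variation (CV, the SD as a percentage of the mean) of 2.89%. Defa17, often used as a Paneth marker, was at 13778, 18098 and 15567 CPM, highest in water 2. At the other end, 4 of the 46 had no count in any library.

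Single members varied more than the family did. Of the 37 alpha-defensins at 10 CPM or more, 11 had a CV over 20%, and their median CV was 16.2%, against 6.23% over all 9198 genes at that level. Defa21 stood at 15090, 22724 and 12323 CPM, and Defa22 at 6017, 10628 and 6011 CPM. Both were highest in water 2, and their sum was too, at 21107, 33352 and 18334 CPM with a CV of 32.9%, so summing this pair did not level the libraries. Defa32 ran the other way, with 4900, 2544 and 5299 CPM, and so did Defa20, which shares 86.7% of its windows with Defa32, with 226, 132 and 197 CPM. The summed family, by comparison, had a CV of 3.52%.

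**Figure D2:**
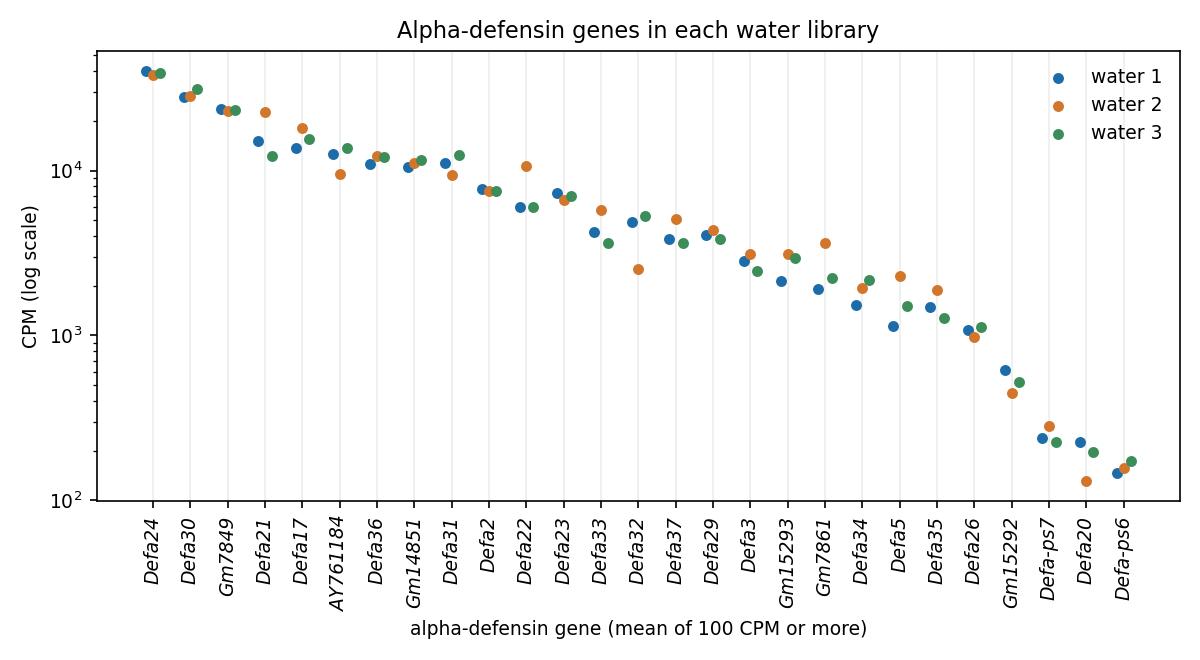
CPM on a log scale of the alpha-defensin genes with a mean of at least 100 CPM, ordered by mean, with a point for each water library. Defa24, Gm7849 and Defa2 have points that nearly coincide, while water 2 is above the others in Defa21 and Defa22 and below them in Defa32 and Defa20.

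Other granule proteins took 6.34%, 6.34% and 6.94% of counts. Itln1, intelectin-1, a lectin that binds microbial sugars, was the most abundant of them at 41418, 40376 and 45336 CPM (40264 TPM). Ang4, a ribonuclease with microbicidal activity, was at 8199, 8778 and 8385 CPM, and the mucosal pentraxin Mptx2 at 4706, 4812 and 5939 CPM. Mmp7, the activating protease, was at 2622, 3054 and 3265 CPM, lowest in water 1. Per length, Defa24 alone exceeded Mmp7 by 33.6 ± 4.58 times. Pla2g2a, a secreted phospholipase that the annotation lists as a polymorphic pseudogene, was counted at 468, 590 and 485 CPM.

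The lipid-digesting cofactor colipase, Clps, reached 3228 TPM and the lipase-related Pnliprp2 reached 1492 TPM, both among the highest of the granule list. Among the Reg lectins, secreted proteins with antibacterial members, Reg4 was steady at 2653, 2671 and 2983 CPM. Reg3g stood at 542, 1307 and 673 CPM and Reg3b at 86.6, 240.4 and 147 CPM. Both were highest in water 2, with a CV of 48.7% for Reg3g and 49.1% for Reg3b. Retnlb, a resistin-like secreted protein, differed most within the list, at 1.96, 26.2 and 5.75 CPM, again highest in water 2.

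The remaining classes were small beside the granule genes. Mitochondrially encoded genes took 2.08%, 1.71% and 1.99% of counts, cytosolic ribosomal protein genes 1.54% ± 0.0695 and translation factors 1.39% ± 0.0481. Chaperones and enzymes of protein folding in the endoplasmic reticulum, with the unfolded protein response, took 1.26% ± 0.0450, led per length by the disulfide isomerase P4hb. Genes of the import and glycosylation machinery took 0.601% ± 0.00619 and vesicle coats and cargo receptors 0.623% ± 0.00731; their CV of 1.03% and 1.17% was below that of the granule share, 2.60%. Cytoskeletal genes and keratins had the steadiest summed share, 0.386% with a CV of 0.146%. Mucus and related secreted proteins of goblet cells took 1.152%, 1.16% and 1.08%.

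**Figure D3:**
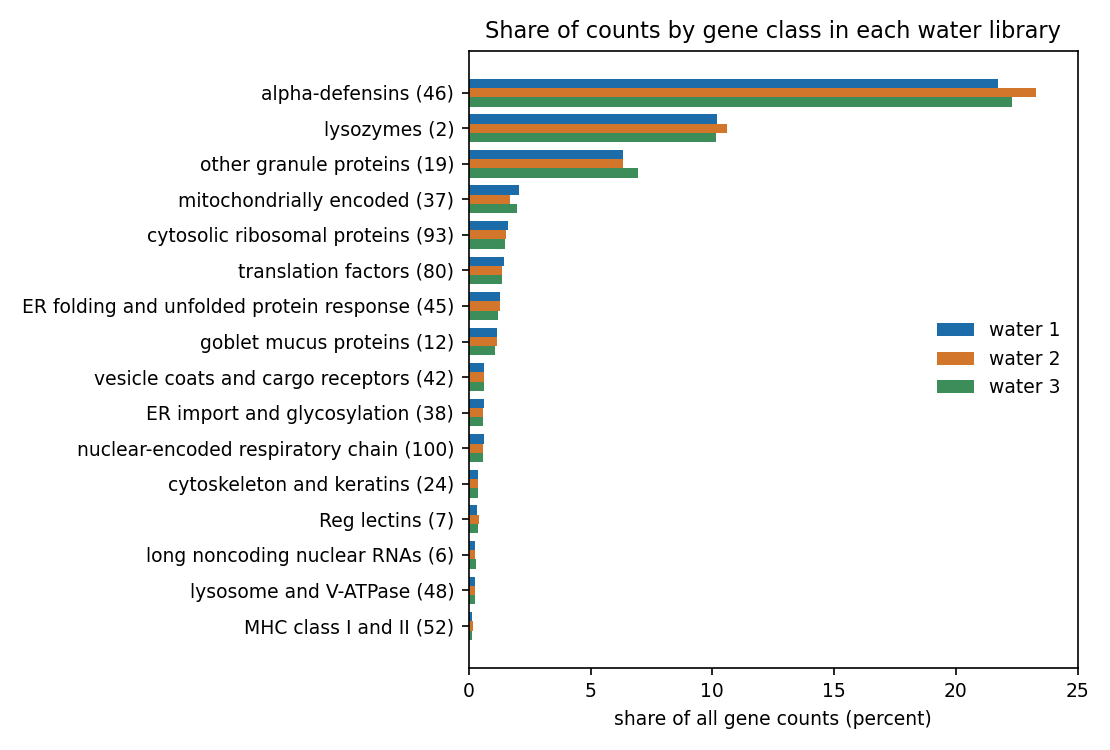
Share of all gene counts, in percent, taken by each of 16 gene classes in each water library, with the number of genes in brackets; bars start at 0. Alpha-defensins lie between 21.7% and 23.3% and lysozymes between 10.1% and 10.6% in every library, while each of the 13 classes below the other granule proteins is at 2.08% or less.

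Some pseudogenes that resemble mitochondrially encoded or ribosomal protein genes had high counts. The nuclear pseudogene Gm10925 (chr1:24613974-24614651, minus strand) had 3930, 3322 and 3741 CPM, and its transcript is identical to mt-Atp6, a subunit of the mitochondrial ATP synthase, over its whole length. mt-Atp6 itself had 0.816, 0 and 0.811 CPM. In the same stretch of chromosome 1, Gm28437 matched mt-Co3 and Gm28661 matched mt-Co2, subunits of cytochrome c oxidase, both at full identity, with means of 2860 and 2682 CPM. Reads of such copies cannot be told apart. mt-Co3 and mt-Co2 had means of 0.172 and 0.6201 CPM; these 3 mitochondrial genes were singled out after their values were seen. With the 10 pseudogenes that best match a mitochondrially encoded transcript added, the mitochondrial share was 3.33% ± 0.297, and with 546 ribosomal protein pseudogenes added the ribosomal protein share was 2.62% ± 0.117. These matches needed only 80% identity over 50% of the length, so whether the counts belong to the parent genes or to the pseudogenes was not tested.

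Counts were concentrated in few genes. The 10 highest genes held 29.5% ± 0.571 of counts and the 100 highest 48.5% ± 0.639. The 130 highest held 50%, whereas 9 genes sufficed by TPM. With the granule genes left out of the total, 1248 genes were needed. Correction for length moved long genes down: Huwe1, a very large ubiquitin ligase, went from rank 173 by CPM to rank 2831 by TPM. It moved the very short mitochondrial leucine tRNA gene mt-Tl1 from rank 8004 up to rank 141.

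Transcription factors lay far below the 18 highest granule genes. Of 38 factors listed for secretory and Paneth cell identity, all 38 had a mean of at least 1 CPM and 25 had at least 10 TPM. Among all 28404 genes with a count, 14796 had a mean of at least 1 CPM. By mean TPM, 4163 of all genes lay at 10 to 100, 295 at 100 to 1000, 33 at 1000 to 10000 and 18 above. Xbp1, the factor of the unfolded protein response that secretory cells require, had the highest mean of the 38 factors, 103 TPM. The hepatocyte nuclear factor Hnf4a had a mean of 95.8 TPM. In water 1, 2 and 3, Xbp1 had 95.9, 112 and 102 TPM and Hnf4a had 108, 87.6 and 92.0 TPM. Their order was reversed in water 1 and was not clear beyond the spread. By CPM, Hnf4a was the higher, at 426 against 310. Bhlha15 (Mist1), a factor of secretory cell structure, was at 76.5 TPM. Atoh1, which commits crypt cells to the secretory lineages, was at 52.7 TPM, Spdef at 46.4 TPM and Sox9, required for Paneth cells to form, at 40.2 TPM. Gfi1, which acts downstream of Atoh1, was low and uneven, with 17.0, 29.6 and 16.1 CPM. Exocytosis genes were led by Rab3d, a GTPase of secretory granules, at 264, 271 and 262 CPM (68.6 TPM).

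Ligands for neighbouring cells were present at low levels apart from chemokines. Ccl6 stood at 1362 TPM and Ccl9 at 73.8 TPM. Wnt3, the Wnt ligand that Paneth cells supply to stem cells, had 103, 117 and 99.6 CPM (37.6 TPM). The Notch ligands Dll1 and Dll4 were at 11.6 and 10.2 TPM, with a Dll1 to Dll4 ratio of 1.14 ± 0.152, so their order was not clear beyond the spread. Egf was at 30.3, 29.5 and 31.2 CPM (2.92 TPM), and Wnt3 exceeded it by 12.9 ± 1.47 times per length. By CPM the gap was much smaller, so this ratio rests largely on the annotated lengths. Of 39 listed ligands, 20 had a mean of at least 1 CPM, 10 had 3 counts or fewer in each library and 3 of these, Wnt3a, Rspo1 and Rspo3, had none. Among all genes, 14796 of the 28404 with a count had a mean of at least 1 CPM, so the ligands were detected about as often as genes in general.

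Among receptors, Kit was measured in a population stained for its protein. Kit had 245, 241 and 228 CPM, or 238 ± 9.29, and ranked 309 by CPM and 1518 by TPM (29.0 TPM). Its ligand gene Kitl was at 36.4, 24.8 and 37.3 CPM, lowest in water 2, and the Kit to Kitl ratio per length was 4.99 ± 1.29. Lgr4, a receptor for R-spondins, led the receptor list at 58.4 TPM, followed by the ErbB receptor Erbb3 at 34.7 TPM. Cd24a, whose protein defined the sort, had 1889, 2083 and 1980 CPM. Receptors for cytokines and microbes were led by Nlrp6, an inflammasome sensor, at 33.9 TPM and by the interleukin receptor chain Il13ra1 at 26.7 TPM, whereas Nod2, a sensor of bacterial wall fragments, was at 0.332 TPM.

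Lists of cell type markers were then summed. All 10 Paneth markers were above 10 CPM, with a summed level of 214867, 221275 and 221086 CPM. All 10 belong to the granule genes whose share is described above, so they are no separate check of the label. Markers of blood and supporting cells were low. The summed level was 0.0408 to 0.259 CPM for 10 T cell genes, 1.122 to 2.12 CPM for 8 B and plasma cell genes, 0.0816 to 0.193 CPM for 8 mesenchymal genes and 0.367 to 1.73 CPM for 5 erythroid genes. It was higher for 5 endothelial genes, at 2.69, 3.41 and 3.21 CPM, of which Emcn gave 2.49, 2.98 and 2.20 CPM, and for 5 genes of glia and neurons, at 3.92, 4.88 and 4.403 CPM. Cd3d, Cd3g, Cd8a, Col1a1, Col1a2, Cdh5, Tie1, Sox10 and Adgre1 had no count. The 9 myeloid markers summed to between 5.31 and 9.28 CPM and the 4 leukocyte markers to between 7.61 and 12.3 CPM, and Ptprc, the gene of CD45, took most of these counts, at 8.45, 12.1 and 7.45 CPM. The sort had removed cells with that protein on their surface.

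Genes known from other epithelial cells were measurable. The 10 goblet markers summed to 12335, 12228 and 11666 CPM and the 10 stem cell markers to 4976, 4088 and 4251 CPM; all 20 were above 10 CPM in the mean. Olfm4 took the largest part of the stem cell counts, at 2662, 2163 and 2363 CPM. Lgr5 had 154, 101 and 93.7 CPM, highest in water 1, as were the summed levels of 22 genes of the G2 and M phases, 1406, 1129 and 1155 CPM, and of 20 S phase genes, 786, 631 and 674 CPM. The 12 tuft cell markers summed to 549, 604 and 557 CPM and the 12 enterocyte markers to 671, 624 and 771 CPM. In bulk libraries, fewer cells of a type and less RNA per cell cannot be told apart, and Paneth cells themselves share some of these genes, so what part other cells played was not tested.

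**Figure D4:**
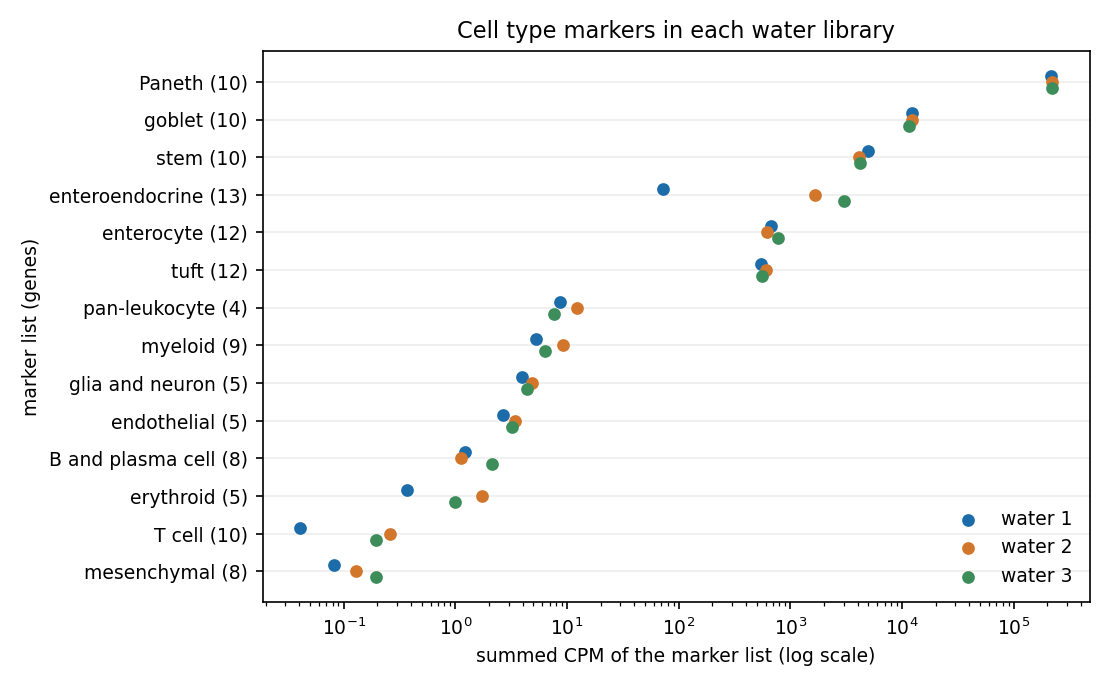
Summed CPM of 14 cell type marker lists, on a log scale, with the number of genes in brackets and a point for each water library. The points of each epithelial list nearly coincide except for enteroendocrine markers, where water 1 lies at 72.3 CPM and the others at 1668 and 3006 CPM.

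Enteroendocrine markers set water 1 apart. These genes belong to the hormone cells of the gut. The 13 markers summed to 72.3, 1668 and 3006 CPM, and 12 of the 13 had at least 1 CPM in the mean. Chgb, encoding the granule protein secretogranin 1, had 26, 715 and 1374 CPM. Chga, chromogranin A, had 5.79, 304 and 548 CPM, so its log2 difference was 5.71 between water 2 and water 1 and 6.56 between water 3 and water 1. The hormone genes Sst (somatostatin) and Gip showed the same gap, with 3.63, 237 and 370 CPM for Sst and 8.69, 207 and 400.01 CPM for Gip. Tph1, the enzyme for serotonin, had 1.35, 64.8 and 114 CPM and Ghrl (ghrelin) 0.612, 29.1 and 64.7 CPM. Of the 11 at 10 CPM or more, the libraries were closest for Sct (secretin), at 16.3, 36.2 and 38.9 CPM.

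The same libraries differed in genes that peptide-secreting cells use more widely. Pcsk1, a protease that cuts prohormones, had 29.6, 55.5 and 93.8 CPM, and Cpe, which trims the cut ends, had 2.86, 44.5 and 69.8 CPM. The endocrine transcription factors Rfx6 and Insm1 were at 1.71, 14.0 and 24.4 CPM and at 2.33, 15.4 and 20.7 CPM. Neurog3, the factor that starts the endocrine lineage, showed no such gap, at 1.43, 1.08 and 1.66 CPM. These 5 genes were singled out after their values were seen. The granule share in these libraries was 38.6%, 40.7% and 39.8%.

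Across all genes the libraries were close. Of 9198 genes with a mean of at least 10 CPM, the median CV was 6.23%, where counting error alone gives a median of 3.51%; 78.4% of them had a CV under 10% and 97.0% under 20%. The common biological coefficient of variation, edgeR's estimate of the spread beyond counting error, was 12.1%. The median absolute log2 difference was 0.12 between water 1 and water 2, 0.09 between water 1 and water 3 and 0.11 between water 2 and water 3. Water 2 was the library farthest from the other 2 in 42.3% of these genes, water 1 in 32.7% and water 3 in 25.02%. Water 3 was thus the least often apart in these genes. It is the library of the other age and isolation day, and the part of either was not tested. The named genes with the smallest CV at 50 CPM or more were Sec23ip, which acts in vesicle export, at 58.5, 58.5 and 58.4 CPM, and the kinase gene Hipk3, at 92.9, 92.9 and 93.0 CPM. Their CV of 0.0689% and 0.0813% lay below the 2.64% and 2.09% that counting error alone gives. Values this close are the low end of a ranking of many genes and do not measure how steady a gene is.

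**Figure D5:**
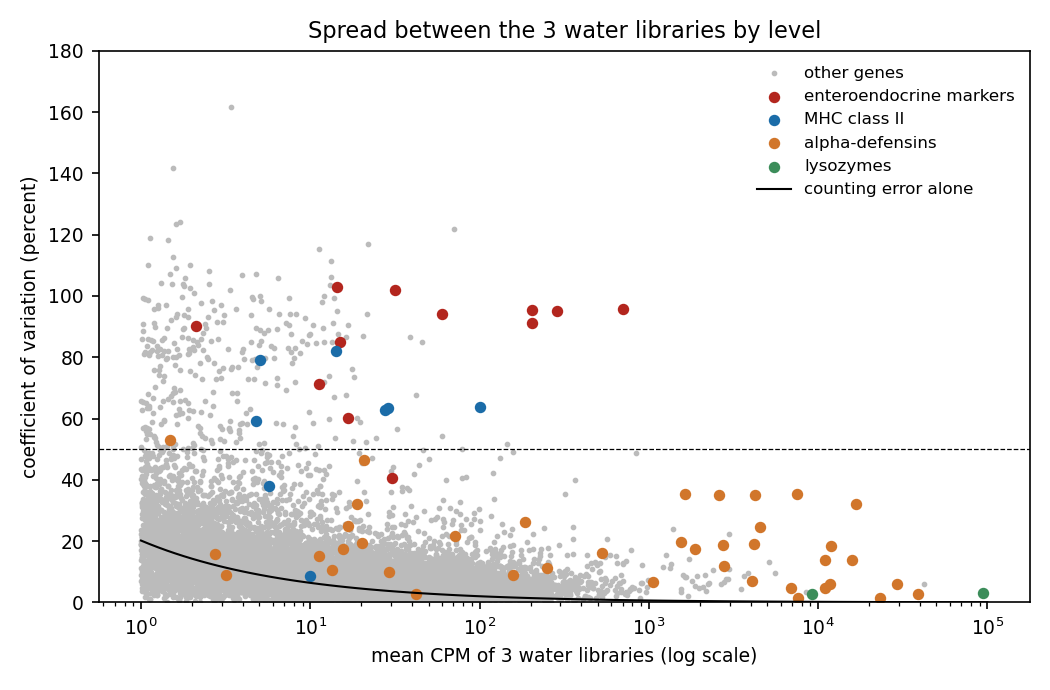
CV of each gene over the 3 water libraries, in percent, against its mean CPM on a log scale; the black line is the CV of counting error alone and the dashed line marks 50%. Most genes lie under 20%, whereas most enteroendocrine markers and MHC class II genes lie above 50%.

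Only 57 of the 9198 genes had a CV over 50%, and they were not spread evenly over the libraries. Water 1 was the lowest library in 51 and the farthest from the other 2 in 45. Of the 11 enteroendocrine markers at 10 CPM or more, 10 were among the 57. Without water 1 the number was 31, without water 3 it was 40 and without water 2 it was 60. With 1 library left out the CV rests on 2 libraries, so these numbers are not directly comparable with the 57. The median CV was then 5.19%, 4.39% and 5.90% without water 1, 2 and 3, each below the 6.23% over 3 libraries. Over all 3 libraries but without the 13 enteroendocrine markers, 47 genes had a CV over 50%. The largest CV was that of Afp, alpha-fetoprotein, at 0.367, 44.9 and 166 CPM, and next came Trpa1, an irritant-sensing channel of serotonin-releasing gut cells, at 0.0816, 15.5 and 50.2 CPM. Rab3c, Scn3a and Asic5, genes of vesicle release and of ion channels, were lowest in water 1 as well. The direction was reversed in Hspa1b, an inducible heat shock gene, with 19.6, 16.7 and 5.48 CPM.

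A smaller set stood out in water 2. Of 5 listed genes of MHC class II antigen presentation at 10 CPM or more, 4 had a CV over 50%: Cd74 was at 65.6, 175.3 and 62.4 CPM, H2-Ab1 at 17.7, 49.9 and 18.9 CPM, H2-Eb1 at 17.7, 47.4 and 17.3 CPM and H2-Aa at 7.35, 27.4 and 7.53 CPM. The remaining listed gene had a CV of 8.75% and was lowest in water 2. In each of the 4 with a CV over 50%, water 1 and water 3 lay close together below water 2. Their activator Ciita was at 2.73, 9.71 and 2.78 CPM. Socs3, a feedback inhibitor of cytokine signalling, was at 6.94, 28.3 and 13.3 CPM, and Nupr1 and Chac1, genes known from the stress response, at 284, 536 and 280 CPM and at 27.3, 90.01 and 19.2 CPM; the last 3 were singled out after their values were seen. Among the 4 leukocyte markers, Laptm5 had no count, Cd52 had 0.122, 0.0431 and 0.0772 CPM and Coro1a had 0.0408, 0.173 and 0.0772 CPM. Ptprc, the CD45 gene, was highest in water 2, at 12.1 CPM. So was the summed level of the 9 myeloid markers, at 5.31, 9.28 and 6.41 CPM, among which Cd14 had 4.04, 5.52 and 3.78 CPM and C1qa had 0, 1.64 and 0.657 CPM; Adgre1, C1qb, S100a8 and S100a9 had no count. The part of white blood cells in these values was not tested.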

How the data were processed

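The authors deposited a count per gene for each library. Per the submitters' processing notes, reads were aligned with STAR 2.5.3a to mm10, and the notes also name featureCounts 1.5.2 and DESeq2. The file headers give featureCounts 1.5.3 on GENCODE mouse release 15, counting exons by gene with primary alignments, at least 0.8 of a read inside the exon, and without a strand setting. Reads from genes that overlap, antisense ones included, are thus not separable, and reads matching several copies are counted once at their primary site. The file's length column, in bases, was deposited with the counts.

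CPM and TPM were computed from these counts with library totals and the length column. GENCODE release 21 supplied symbols by gene identifier for 52403 genes; 147 had none. Spread was computed as the CV, and as the common biological coefficient of variation by edgeR 4.0.16 in R 4.3.3 with TMM factors, filterByExpr and an intercept alone. DESeq2 1.42.0 gave other size factors and dispersions. Pseudogenes with a mean of at least 1 CPM, 1969 in all, were matched to their closest transcript with blastn 2.17.0, at 80% identity or more over at least 50% of their length. The steps were tested on simulated data with known spread. Every pair of libraries differed beyond counting noise, with a chi-square of 14.5 or more for each degree of freedom.

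Named genes were drawn from the 25 highest by CPM and by TPM, 7 set genes (Lyz1, Mmp7, Defa17, Kit, Kitl, Cd24a and Lgr5), up to 6 of the highest by TPM of each list described with any defining marker at 0, the 15 largest CV at 10 CPM or more, the 10 smallest at 50 CPM or more, and the 10 largest moves in rank either way between CPM and TPM among the 200 highest. Beside the genes so marked in the text, Atoh1, Spdef, Sox9, Gfi1, Dll4, Egf, Nod2, Pla2g2a, Defa20, Defa-ps17, Ciita, Hspa1b, Ifit1, Mx1, Cxcl10 and Slc30a2 were named outside this rule after their values were seen. Not every gene the rule covers is described, and 1 is not reported here. The libraries, gene lists and rules were chosen with earlier results of these data known. The alternatives were other units, scalings, filters and totals, thinned counts and leaving out each library. Adding pseudogenes to classes and leaving out the enteroendocrine markers were chosen after seeing the data.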

Additional observations from a re-analysis of the deposited data

How the results depend on the processing

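No paired analysis was possible because only 1 group was described. Of 119 alternatives computed, 91 stayed within the spread between libraries, or within 1.5 times for a count of genes, and 28 moved further. For the biological coefficient of variation and the median CV, that spread was the SD of the 3 values with 1 library left out. Those left-out values were thus judged against a spread made from themselves. For the log2 difference the spread was the SD over the 3 pairs of libraries. The granule share was 74.5% of TPM. The mitochondrial share was 3.19% with granule genes left out of the total and 3.33% with matching pseudogenes; the ribosomal share was 1.04% of TPM and 2.62% with pseudogenes. The genes holding 50% of counts numbered 9 by TPM and 1248 without granule genes. The biological coefficient of variation was 14.6% with no filter and 4.21% as the median of DESeq2's gene-wise values. The median CV was 8.00% at 1 CPM or more and 5.38% at 50 CPM or more. Genes with a CV over 50% numbered 332 at 1 CPM or more, 10 at 50 CPM or more, 20 at 10 TPM or more and 93 with granule genes left out of the total, where more genes reach 10 CPM. The median log2 difference was 0.13 at 1 CPM or more. Leaving out each library gave granule shares of 39.2% to 40.2%, mitochondrial shares of 1.85% to 2.03%, ribosomal shares of 1.51% to 1.58%, 14229 to 14511 genes at 1 CPM, 123 to 136 genes holding 50% of counts, biological coefficients of variation of 10.2% to 13.6%, median CV of 4.39% to 5.90%, 31 to 60 genes with a CV over 50% and log2 differences of 0.0896 to 0.120. With 1 library left out, a CV rests on 2 libraries and is not directly comparable with a CV over 3. None of 24 alternatives for the level of a single gene moved it by over 1 SD, while 8 of 24 for its rank did. Leaving out 1 of 3 libraries cannot move a mean level or a mean share by over 1 SD. Those alternatives were thus bound to stay within the spread, whatever the data. At these depths, levels under 0.129 CPM rest on 3 counts or fewer.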

Other observations

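A group of very large interferon-inducible GTPase genes on chromosome 7 took many counts, with Gm8979 the highest of them per length. Gvin1, Gm4070, Gm8979, Gm8989 and 9130208D14Rik together had 2692, 2066 and 2344 CPM; the group was put together after its values were seen. Gm8979 and Gm8989 are annotated as pseudogenes, at means of 737 and 701 CPM, and their transcripts are 96.2% and 96.0% identical to Gvin1, which itself had a mean of 190 CPM (22.9 TPM, against 109.7 TPM for Gm8979 and 104.6 TPM for Gm8989), so how reads were divided among the copies is uncertain. Of 35 other genes listed as induced by interferon, 10 reached 10 CPM. Among all genes, 9198 of the 28404 with a count reached that level, out of 52550 counted. Ifit1, Mx1 and Cxcl10 had means under 1 CPM.

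The summed CPM of 26 channels and transporters had a CV of 7.67% between libraries and that of 24 genes of zinc and metal handling a CV of 3.54%. The chloride cotransporter Slc12a2 led the channels and transporters at 203 TPM, and the water channel Aqp1 was at 148 TPM. Among the metal genes, the ferritin heavy chain Fth1 was highest at 762 TPM, and Slc30a2, a zinc carrier of secretory vesicles, was at 35.9 TPM. The summed level of the metal genes was 1720.2, 1768 and 1648 CPM. Xist, the RNA that coats an inactive X chromosome, had 1649, 1431 and 1704 CPM, and Ddx3y, Kdm5d and Eif2s3y on the Y chromosome had no count in any of the 3 libraries.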
